A study of Homo sapiens with 8 samples.

Results

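SNRPN, SNURF, NDN, MAGEL2 and UBE3A are genes of the imprinted region of chromosome 15, and their RNA was followed in SK-N-BE(2) neuroblastoma cells with and without METTL14 knockdown. The 5 genes were chosen by name from the 56303 genes of the count table. They were selected on their input level, their IP over input and their changes in all 8 libraries, so those values are given here as a description with standard errors and no test. SK-N-BE(2) is an established human neuroblastoma line with MYCN amplification. Control cells carried a non-targeting hairpin (sh-NC) and knockdown cells a hairpin that targets METTL14 (shMETTL14), which the study's methods deliver by the pLKO.1 lentiviral vector. The titles number 2 replicates per arm, called cultures here, and do not say whether they were grown or infected separately. IP and input libraries of the same number were read as 1 culture. The labels do not say whether shMETTL14 cultures 1 and 2 carried the same shRNA. Each culture gave an input library, a sample of fragmented poly(A)-selected RNA, and an IP library, the fragments pulled down with an antibody against N6-methyladenosine (m6A). METTL14 is the partner of METTL3 in the enzyme complex that writes m6A on mRNA.

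In an imprinted region a gene is read from the chromosome of 1 parent only. In 15q11-q13 the promoter of SNRPN lies in the imprinting centre, a control element that is methylated on the maternal copy, and SNRPN, SNURF, NDN, MAGEL2 and the long noncoding SNHG14 are read from the paternal copy. UBE3A is read from both copies in most tissues and from the maternal copy in neurons, where SNHG14 runs antisense across it. Loss of the paternal genes is known for Prader-Willi syndrome and loss of maternal UBE3A for Angelman syndrome. The count table sums both copies, so parental origin was not measured.

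The library totals ran from 32027379 to 47205265 counts. METTL14 fell in shMETTL14 input, from 49.5 and 48.8 CPM (counts normalised to library size with the TMM factors of the 8 libraries) to 13.7 and 14.7 CPM, a log2 difference of -1.79 (SE 0.0663, n = 2 cultures per arm, edgeR quasi-likelihood adjusted p = 1.28e-15). The neuroblastoma markers MYCN (4224 to 5510 CPM over the 8 libraries), HAND2 (988 to 2034 CPM) and GATA3 (121 to 162 CPM) were abundant, PHOX2A ran from 140.5 to 159.0 CPM in input and from 55.0 to 58.9 CPM in IP, and ISL1 (20.0 to 33.6 CPM), TH (10.5 to 70.2 CPM) and DBH (2.07 to 4.64 CPM) were present at lower levels. HBB of red cells was at 0, and PECAM1 of endothelium, PTPRC of blood and COL1A2 of fibroblasts stayed at or below 2.27 CPM. The fibroblast-associated genes COL1A1 (25.7 to 88.5 CPM) and PDGFRB (78.5 to 127.4 CPM) were present.

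SNRPN lies on the plus strand at 24823637 to 24978723 of chromosome 15 (GRCh38), and SNURF lies inside it at 24954986 to 24977850. SNRPN encodes SmN, a core protein of the spliceosome that is abundant in neurons, and SNURF encodes a small protein from an upstream reading frame of the same bicistronic transcript. NDN (minus strand, 23685400 to 23687330) encodes necdin and MAGEL2 (minus strand, 23643544 to 23647841) a further protein of the MAGE family. UBE3A (minus strand, 25333728 to 25439056) encodes a ubiquitin ligase, and SNHG14 (plus strand, 24978583 to 25419462) starts within the last exon of SNRPN and ends inside UBE3A.

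RefSeq (GRCh38.p14) places 1 start shared by SNRPN and SNURF. The table also has SNRPN exons further upstream, and its SNRPN exon at the shared start begins somewhat before that start. The bases ahead of this exon are shown because SNRPN and SNURF share this start and their counts, which share reads, were both lower after knockdown. Those before NDN are shown because NDN is read from the same parental copy and differed little between the arms. Each sequence is 5′ to 3′ on the strand of its gene, ends at the last base before the exon that holds this start in the table, and has its CG dinucleotides, the letters that DNA methylation acts on, in capitals. The SNRPN/SNURF sequence is chr15:24954737-24954926 on the plus strand (190 bases) and the NDN sequence is chr15:23687331-23687555 on the minus strand (225 bases).
SNRPN/SNURF: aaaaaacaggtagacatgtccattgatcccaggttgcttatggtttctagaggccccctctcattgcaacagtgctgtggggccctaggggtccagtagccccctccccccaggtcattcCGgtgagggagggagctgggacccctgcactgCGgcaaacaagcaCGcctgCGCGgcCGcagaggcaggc
NDN: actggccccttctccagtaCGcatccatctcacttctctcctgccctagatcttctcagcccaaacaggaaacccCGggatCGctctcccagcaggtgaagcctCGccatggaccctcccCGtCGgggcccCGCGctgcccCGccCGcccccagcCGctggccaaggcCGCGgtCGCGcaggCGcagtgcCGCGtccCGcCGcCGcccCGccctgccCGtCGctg
The printed SNRPN/SNURF bases held 6 CG and the printed NDN bases 24 CG. CG was searched as those letters, which read the same on both strands. Over the full 250 bases before the start, the shared SNRPN/SNURF window held 12 CG, and 48.5% of the 35116 promoter windows in the RefSeq table held at least as many. NDN had 30 CG there (at least as many in 12.4% of windows), MAGEL2 had 8 (56.3%), and the 3 listed UBE3A starts had 37 (4.0%), 33 (8.1%) and 31 (10.9%). The other 3 listed SNRPN starts had 6, 1 and 6. DNA methylation itself was not measured in these libraries.

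The exons of SNRPN and SNURF overlap, and this sets how far their counts can be told apart. The table gives SNRPN 2929 exonic bases and SNURF 1175, of which 814 are shared. The shared bases are 27.8% of SNRPN and 69.3% of SNURF. A further RNA on the same strand, RP11-701H24.9 (1590 bases), shares 541 bases with SNRPN, 349 with SNURF and 1049 with SNHG14. SNHG14 (36573 bases) shares 141 bases with SNRPN and 198 with UBE3A, which is 1.55% of UBE3A. NDN and MAGEL2 share no exonic base with another gene. In control input SNURF had 90.2% and 90.4% as many counts as SNRPN, and RP11-701H24.9 had 70.8% and 71.6%. A read in a shared exon can count for each of these 3 genes, so their values are not independent of each other. The same holds for SNHG14 in the exonic bases that it shares with RP11-701H24.9 and SNRPN.

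Per kilobase of exon, SNURF had the highest value of the 5 genes in sh-NC input, at 63.8 and 66.6 CPM per kb in cultures 1 and 2. SNRPN followed at 28.4 and 29.5 CPM per kb, UBE3A at 8.57 and 8.37, NDN at 5.36 and 5.61, and MAGEL2 at 0.0260 and 0. No neighbours in this order overlapped between cultures. SNURF and SNRPN had similar and partly shared counts, 2680 and 2972 in sh-NC input 1. Their order per kb therefore follows from the 1175 and 2929 exonic bases they were divided by, and does not show that SNURF RNA was the more abundant. Among the 22953 genes tested in all 8 libraries, SNURF ranked 634, SNRPN 1627, UBE3A 5647 and NDN 7804 by mean CPM per kb of the sh-NC inputs. SNHG14, spread over its long exons, stood at 1.97 and 1.95 CPM per kb. In shMETTL14 input the order was the same, with SNURF at 27.3 and 27.1 CPM per kb, SNRPN at 12.5 and 12.3, UBE3A at 8.35 and 8.41, and NDN at 5.32 and 5.71.

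MAGEL2 had 4 and 0 counts in sh-NC input, 2 and 2 in shMETTL14 input, 6 and 2 in sh-NC IP, and 2 and 2 in shMETTL14 IP. It did not pass the filter on low counts, so no fold is given, and a difference was not detectable at this depth. The other 4 of the 5 genes passed the filter.

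SNRPN was the gene with the plainest difference in level, together with its overlapping partner SNURF. In input, SNRPN had 2972 and 3121 counts in the control cultures and 1547 and 1506 after knockdown, although the knockdown input libraries were the larger ones. As levels these were 83.1 and 86.5 CPM (mean 84.8 ± 2.39, SD, n = 2) against 36.5 and 36.0 CPM (36.3 ± 0.324, SD, n = 2). Both shMETTL14 cultures lay below both sh-NC cultures, and the groups did not overlap. The fitted log2 difference was -1.22 (SE 0.0498), which is 0.429 of the control level, rank 199 from the lowest of the 22245 genes tested in input. In bulk RNA, less SNRPN RNA per cell and fewer cells that make it cannot be told apart. Cell type markers also differed between the arms in input. COL1A1 had 82.3 and 88.5 CPM in control and 54.9 and 52.1 CPM in knockdown input, and PDGFRB had 115.3 and 127.4 against 101.4 and 99.2 CPM. COL1A2, at a low level, went the other way, with 1.455 and 1.774 against 2.265 and 2.154 CPM. The summed level of the 3 fibroblast markers, mostly COL1A1 and PDGFRB, was 199 and 217.6 CPM in control against 158.5 and 153.5 CPM in knockdown input. Of the 8 neuroblastoma markers 6 were higher and 0 lower in both knockdown inputs, among them TH (32.7 and 35.7 against 68.9 and 70.2 CPM) and DBH (2.38 and 2.33 against 4.46 and 3.92 CPM), and their summed level, mostly MYCN, was 5791 and 5557 CPM in control against 5831 and 5745 CPM in knockdown input. PTPRC was at most 0.783 CPM and PECAM1 at most 0.168 CPM in each input, and HBB was at 0. The part of these differences in the SNRPN result was not tested.

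SNURF had 74.97 and 78.2 CPM in sh-NC input (2680 and 2822 counts) and 32.1 and 31.8 CPM in shMETTL14 input (1359 and 1329 counts). Its log2 difference was -1.26 (SE 0.0519), or 0.419 of the control level, at rank 186 from the lowest. Again both shMETTL14 inputs lay below both controls. The difference of the SNRPN and SNURF counts, which is SNRPN-only reads less SNURF-only reads, was 292 and 299 in sh-NC input (8.17 and 8.29 CPM) and 188 and 177 in shMETTL14 input (4.44 and 4.24 CPM). It too was lower in both shMETTL14 cultures. RP11-701H24.9, whose reads are partly those of SNRPN, stood at 58.8 and 62.0 CPM against 29.6 and 27.7 CPM, a log2 difference of -1.07 (SE 0.0575), given without a test for the same reason.

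NDN, whose product necdin restrains cell growth in neurons, had 10.4 and 10.8 CPM in sh-NC input (370 and 391 counts) and 10.3 and 11.03 CPM in shMETTL14 input (435 and 461 counts). The 2 groups overlapped. Its log2 difference was 0.013 (SE 0.101), an error larger than the difference. UBE3A had 109.8 and 107.3 CPM in sh-NC input and 107.0 and 107.8 CPM in shMETTL14 input. These groups overlapped as well, and the log2 difference was -0.0087 (SE 0.0405). SNRPN and SNURF thus differed between the arms while NDN and UBE3A stayed within the spread of the cultures, a contrast that was known when the genes were chosen and was not tested.

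**Figure D1:**
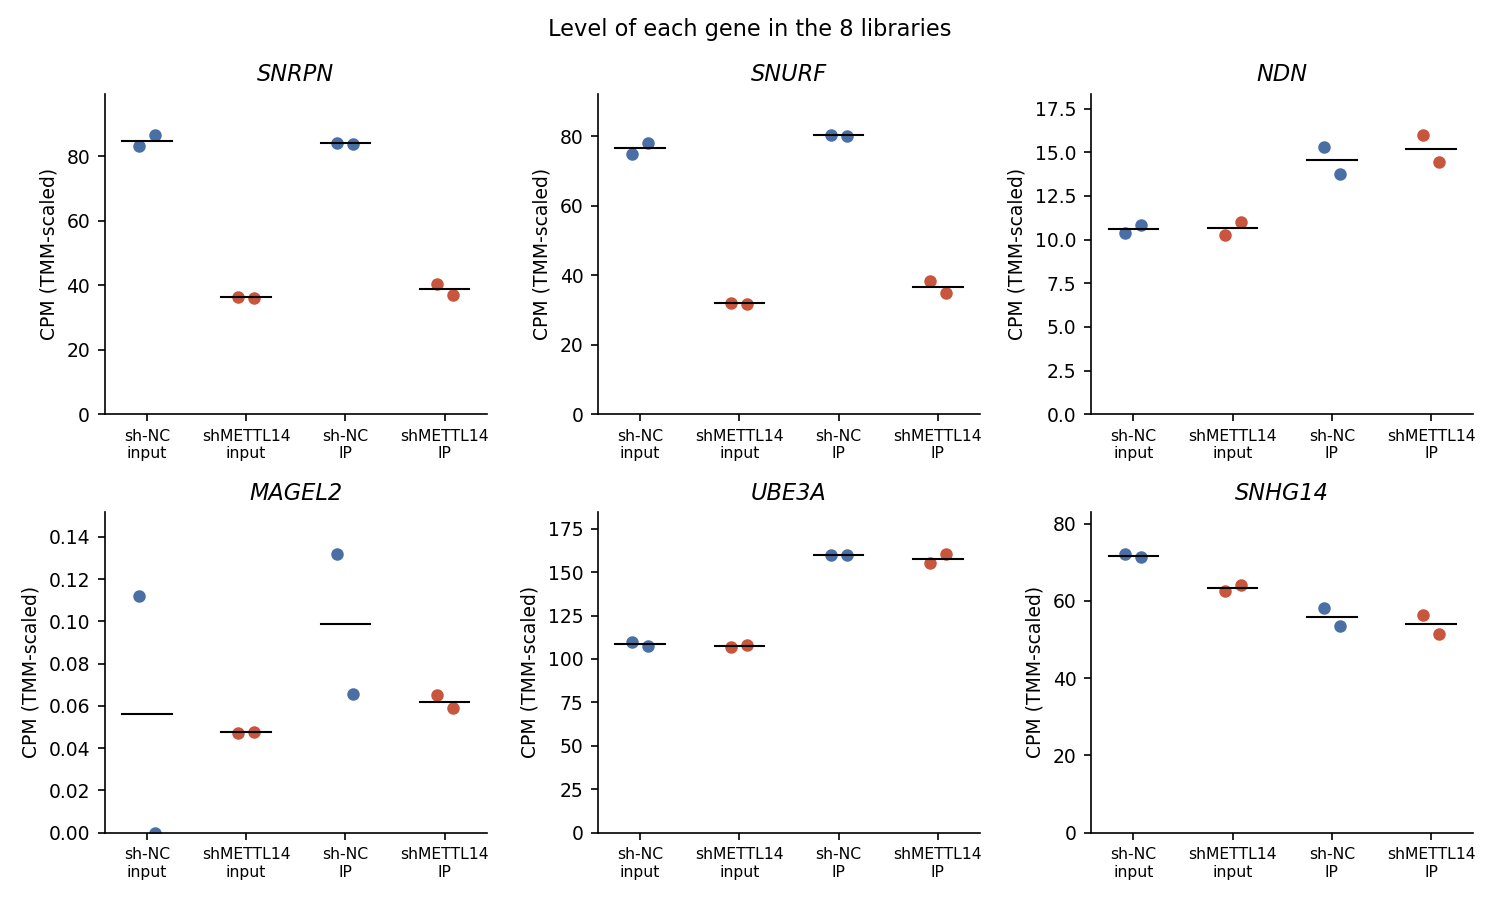
CPM (scaled by TMM factors) of SNRPN, SNURF, NDN, MAGEL2, UBE3A and SNHG14 in each library, 2 cultures per group (points) with the group mean (line). SNRPN and SNURF sit near 80 CPM in sh-NC and below 41 CPM in shMETTL14 in input and IP alike, and the MAGEL2 axis ends below 0.16 CPM.

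The neighbours of these genes were read from lists drawn up by name for this region. Over all genes tested in input, 11.7% were called higher and 12.3% lower in shMETTL14 (edgeR quasi-likelihood, adjusted p under 0.05). Of the imprinted transcripts of 15q11-q13 other than the 5 genes, 11 were in the table and 3 passed the filter, SNHG14, PWAR5 and PWAR6. Their median log2 difference was -0.17, against 0.0024 over all genes tested, and 1 of the 3 was called lower and 0 higher. MKRN3, at the far end of the imprinted genes, had 0 to 4 counts in every library, and NPAP1 had 0.

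SNHG14, the host of the SNORD115 and SNORD116 small nucleolar RNAs, had 72.2 and 71.3 CPM in sh-NC input and 62.6 and 64.2 CPM in shMETTL14 input. SNHG14 shares 1049 exonic bases with RP11-701H24.9 and 141 with SNRPN, which were lower after knockdown, so part of its reads may be theirs. The part of these shared reads in the SNHG14 difference was not tested. Both shMETTL14 values of SNHG14 lay below both controls, and the log2 difference was -0.17 (SE 0.0463, edgeR adjusted p = 0.00771). This call was lost without shMETTL14 culture 1 (log2 -0.15, adjusted p = 0.134), without shMETTL14 culture 2 (-0.19, adjusted p = 0.1) and with no filter on low counts (adjusted p = 0.0761). PWAR5 (log2 -0.17, SE 0.122, edgeR adjusted p = 0.344) and PWAR6 (-0.28, SE 0.168, adjusted p = 0.251), noncoding RNAs downstream of SNRPN, did not pass the test. The small nucleolar RNA rows of the region, 83 in number, summed to 187 and 147 counts in sh-NC input and 154 and 188 in shMETTL14 input, and of the 4 tested 0 were called in either direction by edgeR. The RNA was poly(A)-selected, and some of these rows lie in SNHG14 exons, as do 85.4% of the bases of SNORD116-4. Their counts may be reads of SNHG14 and are not read as levels of the small nucleolar RNAs.

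Of the genes that flank the imprinted stretch, 6 of 9 passed the filter, and 1 was called higher and 3 lower in shMETTL14 input, with a median log2 difference of -0.15. NIPA1, a magnesium transporter that is not imprinted and lies beyond MAGEL2 and MKRN3, fell from 40.3 and 40.1 CPM to 21.1 and 22.2 CPM, a log2 difference of -0.89 (SE 0.0636, edgeR adjusted p = 1.95e-10). It was lower in both shMETTL14 cultures than in either control, and the call held without any single culture. CYFIP1, an actin regulator, was called lower (log2 -0.16, SE 0.0406, edgeR adjusted p = 0.00412) and HERC2, a large ubiquitin ligase that binds UBE3A, was called higher (log2 0.17, SE 0.0343, adjusted p = 0.00062). The CYFIP1 call was lost without shMETTL14 culture 1 (log2 -0.14, adjusted p = 0.119) or 2 (-0.19, adjusted p = 0.101) and with no filter (adjusted p = 0.108), and the HERC2 call without shMETTL14 culture 2 (0.17, adjusted p = 0.0809). NIPA2 (log2 -0.052, SE 0.0659, edgeR adjusted p = 0.644) and TUBGCP5 (-0.15, SE 0.067, adjusted p = 0.125) did not pass the test.

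**Figure D2:**
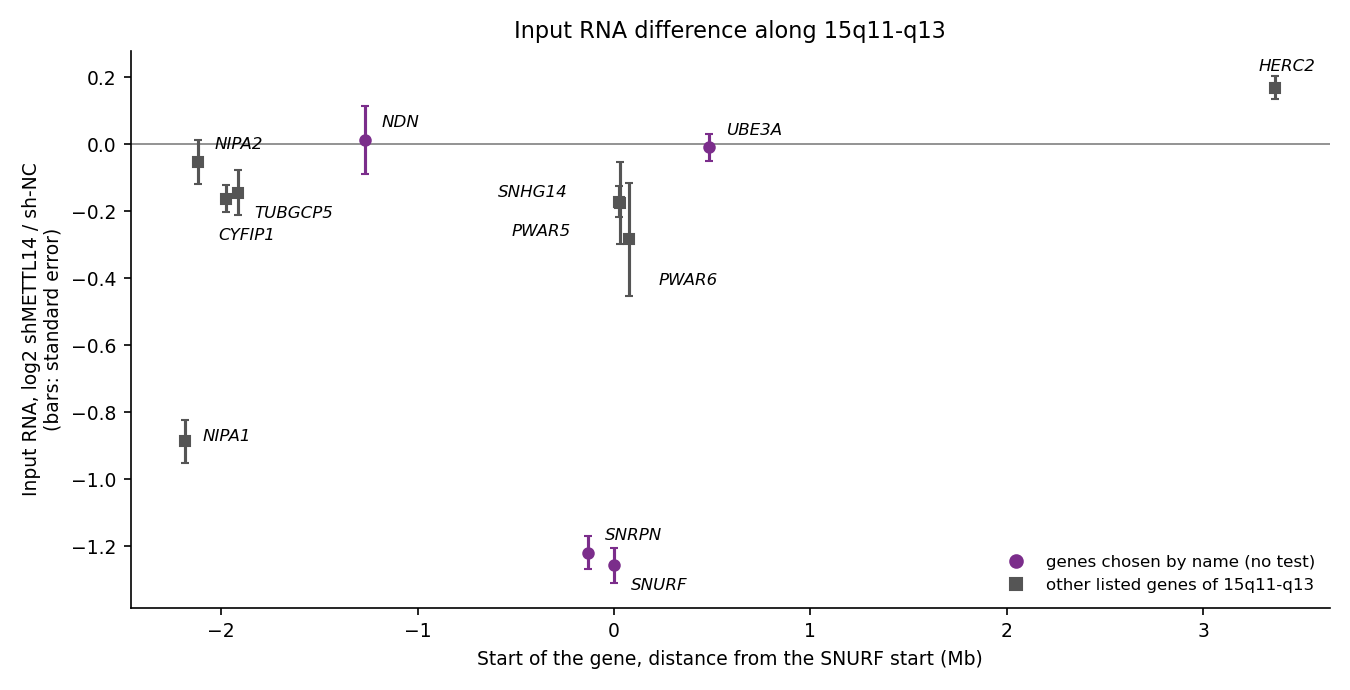
Log2 difference of input RNA, shMETTL14 over sh-NC (points, bars ± standard error, 2 cultures per arm), by the distance of each gene's start from the SNURF start in Mb. SNRPN and SNURF lie near -1.2, NDN and UBE3A on either side of them lie near 0, and NIPA1 lies at -0.89.

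Partners of the 5 gene products were then listed by role. Their calls in input stand beside 11.7% called higher and 12.3% called lower over all genes tested. SmN occupies the place of SmB/B′, the product of SNRPB, in the ring of Sm proteins. All 20 listed genes of the Sm ring and of its assembly by the SMN complex passed the filter, and 1 was called higher and 1 lower in input, a median log2 difference of 0.018. SNRPB stood at 101.0 and 103.3 CPM per kb in sh-NC input. This was above SNRPN per length, where the SNRPN value depends on 2929 exonic bases, 909 of them upstream of the SNURF start. In shMETTL14 input SNRPB stood at 96.7 and 94.0 CPM per kb. Its log2 difference of -0.092 (SE 0.0396) did not pass the test (edgeR adjusted p = 0.0982), although both shMETTL14 inputs lay below both controls. CLNS1A, a chaperone of Sm assembly, fell by 0.21 on the log2 scale (SE 0.0378, edgeR adjusted p = 0.000201). SNRPF, another ring protein, had a log2 difference of 0.11 (SE 0.0358, edgeR adjusted p = 0.0308), a call lost without any 1 of the 4 cultures, with log2 differences of 0.095 to 0.116 and adjusted p from 0.05 to 0.22, with no filter (adjusted p = 0.0642) and in the 8-library model (0.0537).

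For the MAGE genes and the partners of MAGEL2 (16 tested), 0 were called higher and 2 lower in shMETTL14 input, and the median log2 difference was 0.0079. MAGEF1 fell by 0.36 on the log2 scale (SE 0.0465, edgeR adjusted p = 2.22e-06). TRIM27, the ubiquitin ligase that MAGEL2 binds, had a log2 difference of -0.13 (SE 0.0448, edgeR adjusted p = 0.0398), a call lost without sh-NC culture 1 (-0.089, adjusted p = 0.254), shMETTL14 culture 1 (-0.13, adjusted p = 0.202) or shMETTL14 culture 2 (-0.13, adjusted p = 0.252), with DESeq2 (adjusted p = 0.0903) and with no filter (adjusted p = 0.202). USP7, the deubiquitinase of the same complex, had a log2 difference of -0.0021 (SE 0.0361, edgeR adjusted p = 0.978).

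Of the partners and substrates of UBE3A, 11 of 12 were tested, with a median log2 difference of -0.17. In shMETTL14 input 2 were called higher and 6 lower, beside 11.7% and 12.3% of all genes tested. MAPK6, a kinase found in a complex with UBE3A and HERC2, fell by 0.61 on the log2 scale (SE 0.0507, edgeR adjusted p = 2.2e-09). ARC, a synaptic protein, fell by 0.49 (SE 0.0537, edgeR adjusted p = 2.14e-07), and UBE2D3, a ubiquitin-conjugating enzyme, fell by 0.22 (SE 0.0374, adjusted p = 0.00011). NEURL4, a further member of the HERC2 complex, was called higher (log2 0.25, SE 0.0696, edgeR adjusted p = 0.00976), a call lost without sh-NC culture 1 (0.20, adjusted p = 0.11) or shMETTL14 culture 2 (0.18, adjusted p = 0.271) and with no filter (adjusted p = 0.126).

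Imprinted genes of other chromosomes gave 28 tested genes, with 6 called higher and 5 lower and a median log2 difference of 0.088. IGF2, the paternally read growth factor of chromosome 11, rose by 1.17 on the log2 scale (SE 0.0386, edgeR adjusted p = 1.39e-16) and GNAS-AS1, a paternally read noncoding RNA of the GNAS region, rose by 0.90 (SE 0.134, adjusted p = 1.77e-05). PEG10, a paternally read gene derived from a retrotransposon, fell by 0.38 (SE 0.0368, edgeR adjusted p = 2.78e-08). RTL1 (log2 0.67, edgeR adjusted p = 0.0116), PHLDA2 (-0.38, adjusted p = 0.00827) and DLK1 (-0.19, adjusted p = 0.00478) were also past the threshold. The RTL1 call was lost without sh-NC culture 1 (log2 0.38, adjusted p = 0.228), shMETTL14 culture 1 (0.59, adjusted p = 0.159) or shMETTL14 culture 2 (0.73, adjusted p = 0.173), with DESeq2 (adjusted p = 0.0544) and with no filter (adjusted p = 0.203). The PHLDA2 call was lost without sh-NC culture 2 (-0.29, adjusted p = 0.101), shMETTL14 culture 1 (-0.41, adjusted p = 0.0668) or shMETTL14 culture 2 (-0.36, adjusted p = 0.162) and with no filter (adjusted p = 0.114). The DLK1 call was lost without shMETTL14 culture 2 (-0.14, adjusted p = 0.202) and with no filter (adjusted p = 0.152). The paternally read genes of this list therefore included genes called in either direction. Over all 87 listed genes tested, 9 (10.3%) were called higher and 18 (20.7%) lower, beside 11.7% and 12.3% of all genes tested in input. Leaving out sh-NC culture 1 gave 4 higher calls and leaving out shMETTL14 culture 2 gave 3, while 10 lower calls were left without shMETTL14 culture 1 and 8 without shMETTL14 culture 2.

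IP over input measures how strongly the antibody against m6A enriched the RNA of a gene, as the ratio of the CPM of a culture's IP to the CPM of its input. UBE3A and NDN were the most enriched of the genes, UBE3A at 1.45 and 1.49 in control cultures 1 and 2 and likewise 1.45 and 1.49 after knockdown. NDN stood at 1.48 and 1.27 in the controls and 1.56 and 1.31 after knockdown. SNRPN was near 1, at 1.01 and 0.970 in the controls and 1.11 and 1.03 after knockdown, and SNURF at 1.07 and 1.03 against 1.19 and 1.10. For SNRPN and SNURF both shMETTL14 cultures lay above both sh-NC cultures by a narrow margin, whereas the groups overlapped for NDN and UBE3A. SNRPN and SNURF share reads, so theirs are not separate observations, and this separation was not tested.

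On the log2 scale of the fit, IP over input in sh-NC was 0.56 for UBE3A (SE 0.0413), 0.46 for NDN (SE 0.0984), 0.068 for SNURF (SE 0.05) and -0.013 for SNRPN (SE 0.0487), against a median of -0.014 over all genes. In shMETTL14 it was 0.56 for UBE3A (SE 0.0412), 0.51 for NDN (SE 0.0976), 0.20 for SNURF (SE 0.0579) and 0.094 for SNRPN (SE 0.056). By library size alone all of these ratios were lower, as the median over all genes moved by -0.128 in the controls and -0.12 after knockdown, so that SNURF in sh-NC (-0.061) and SNRPN in shMETTL14 (-0.026) changed sign. Each of the 4 genes shifted with the median.

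The IP libraries repeated the difference in level seen in input. SNRPN had 84.2 and 83.9 CPM in sh-NC IP and 40.4 and 37.2 CPM in shMETTL14 IP, and SNURF had 80.3 and 80.2 CPM against 38.3 and 34.9 CPM. UBE3A had 159.6 and 159.7 CPM in sh-NC IP and 155.2 and 160.5 CPM in shMETTL14 IP, and NDN had 15.3 and 13.8 CPM against 16.0 and 14.4 CPM. The change of IP over input, shMETTL14 minus sh-NC, was 0.11 for SNRPN (SE 0.0742), 0.13 for SNURF (SE 0.0765), 0.048 for NDN (SE 0.139) and -0.0013 for UBE3A (SE 0.0583) on the log2 scale. None of the 4 values was larger than 2 standard errors. The counts cover whole genes, so a shift at a single m6A site within SNRPN or UBE3A would not be seen if the rest of the gene did not move with it. A loss of m6A shared by all genes would not be seen either, because each library was scaled to its own size.

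The ratio of the SNURF count to the SNRPN count was higher in the IP libraries than in the inputs, although SNURF has 361 exonic bases of its own and is not a share of SNRPN. It was 95.4% and 95.6% in sh-NC IP against 90.2% and 90.4% in sh-NC input, and 94.9% and 94.0% in shMETTL14 IP against 87.8% and 88.2% in shMETTL14 input. The difference of the SNRPN and SNURF counts was 8.17 and 8.29 CPM in sh-NC input against 3.91 and 3.68 CPM in sh-NC IP, and 4.44 and 4.24 CPM against 2.08 and 2.21 CPM in shMETTL14. This difference is the reads that count for SNRPN alone less those that count for SNURF alone, and the table does not say which of the 2 moved. RP11-701H24.9 had 82.5% and 81.3% of the SNRPN count in sh-NC IP and 89.9% and 88.7% in shMETTL14 IP, against 70.8% and 71.6%, and 81.1% and 76.8%, in the inputs.

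Among all genes, 29.1% were called higher and 29.8% lower in IP than in input in sh-NC (edgeR adjusted p under 0.05), and 28.9% and 29.1% in shMETTL14. This even split depends on the scaling. With TMM factors 6689 genes were called higher and 6833 lower in sh-NC and 6633 and 6673 in shMETTL14, whereas by library size alone 5358 were called higher and 8250 lower in sh-NC and 5322 and 8080 in shMETTL14. Of the 87 listed genes, TMM gave 31 higher and 33 lower calls in sh-NC and 32 and 31 in shMETTL14, and library size alone gave 24 and 41, then 25 and 41. SNHG14, PWAR5 and PWAR6 were all 3 called lower in IP in both arms. SNHG14 stood at 0.806 and 0.751 in the controls (log2 -0.36, SE 0.0523, edgeR adjusted p = 5.75e-08) and 0.901 and 0.802 in shMETTL14 (log2 -0.23, SE 0.0531, adjusted p = 0.000153), the second of which was lost without shMETTL14 culture 2 (-0.15, adjusted p = 0.142). PWAR6 was at log2 -0.64 in sh-NC (SE 0.197, edgeR adjusted p = 0.00475) and -0.55 in shMETTL14 (SE 0.207, adjusted p = 0.0209), and PWAR5 at -0.42 in both (edgeR adjusted p = 0.0038 and 0.00556). For PWAR6 the sh-NC call was lost without sh-NC culture 2 (-0.37, adjusted p = 0.245) and the shMETTL14 call without either shMETTL14 culture (-0.52 and -0.58, adjusted p = 0.129 and 0.124) and with DESeq2 (adjusted p = 0.0671). For PWAR5 the sh-NC call was lost without sh-NC culture 1 (-0.25, adjusted p = 0.291) and the shMETTL14 call without shMETTL14 culture 2 (-0.32, adjusted p = 0.177). The small nucleolar RNAs gave 0 calls in sh-NC and 1 lower call in shMETTL14, SNORD116-4 (log2 -2.23, edgeR adjusted p = 0.00328), which had a mean of 15 counts and whose bases lie largely inside SNHG14.

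The flanking genes had 1 higher and 5 lower calls in each arm. NIPA1, the neighbour whose input RNA fell, was the higher one, at 1.27 and 1.35 in the controls (log2 0.39, SE 0.0589, edgeR adjusted p = 1.39e-07) and 1.26 and 1.17 in shMETTL14 (log2 0.28, SE 0.067, adjusted p = 0.000382), and the latter call was lost without shMETTL14 culture 1 (0.22, adjusted p = 0.0618). CYFIP1 was the lowest of those named, at 0.559 and 0.512 in the controls and 0.565 and 0.611 after knockdown (log2 -0.90 and -0.76, edgeR adjusted p = 1.51e-22 and 1.41e-19). SNRPB, the paralog of SNRPN, was called lower in IP in both arms, with log2 values of -1.14 (SE 0.0457, edgeR adjusted p = 4.58e-27) and -1.13 (SE 0.0464, adjusted p = 1.65e-26). The Sm ring and assembly list had 9 higher and 8 lower calls of 20 in the controls, then 8 and 6 after knockdown. The MAGE list had 6 higher and 5 lower of 16, then 7 and 4. The UBE3A partners had 2 higher and 7 lower of 11, then 3 and 6, and the imprinted genes of other chromosomes 13 higher and 6 lower of 28, then 13 and 7.

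**Figure D3:**
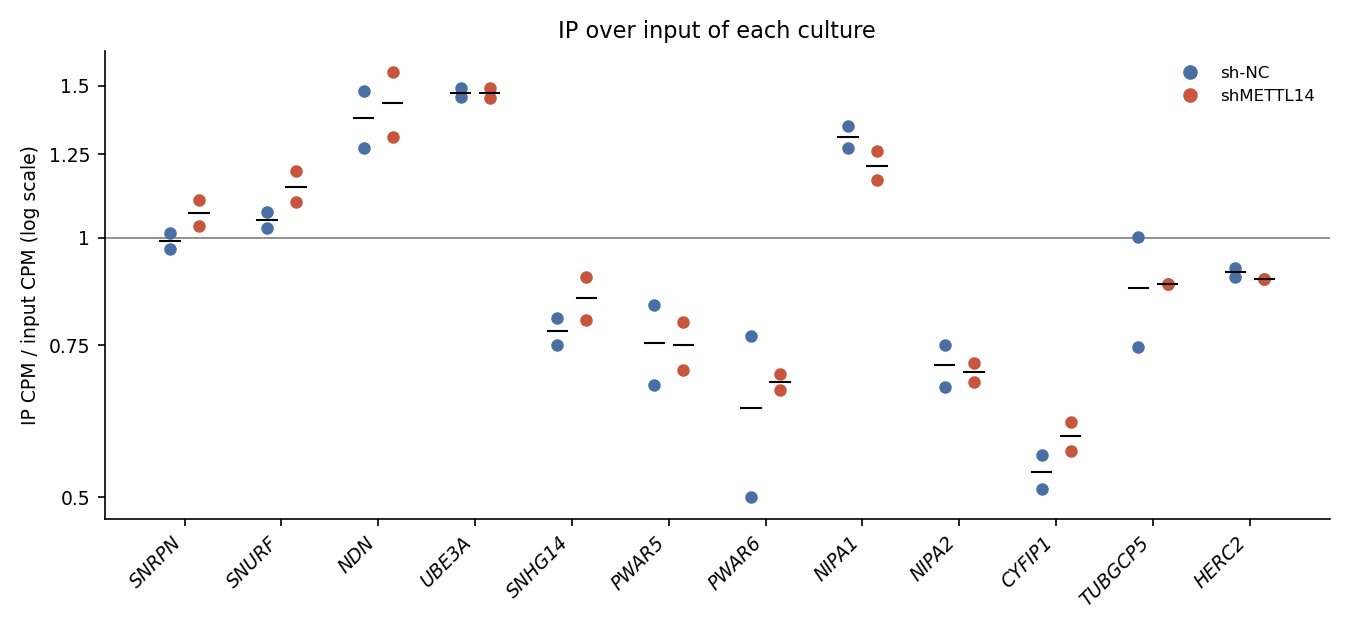
IP CPM over input CPM on a log axis for each culture (points) with the mean of the 2 cultures (line), for SNRPN, SNURF, NDN, UBE3A and tested genes around them, sh-NC beside shMETTL14. UBE3A and NDN lie at or above 1.27, SNRPN and SNURF near 1, and SNHG14 below 1 in all cultures.

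When IP over input was compared between the arms, 0% of all genes were called higher and 0.00436% lower after knockdown, which is the single gene SLC7A5 (an amino acid transporter, log2 -0.47, edgeR adjusted p = 0.00666). None of the 87 listed genes was called by edgeR or by DESeq2, and 11 of them (12.6%) had an unadjusted p under 0.05, beside 6.34% of all genes tested. The log2 changes of the 15q11-q13 neighbours named above, small nucleolar RNAs aside, ran from -0.11 for NIPA1 (SE 0.0892, edgeR adjusted p = 0.889) to 0.14 for CYFIP1 (SE 0.0671, adjusted p = 0.777). SNHG14 had 0.12 (SE 0.0746, edgeR adjusted p = 0.834). Without sh-NC culture 1, 1 listed gene was called lower, IGF2 (log2 -0.29, edgeR adjusted p = 0.00104, against -0.16 and 0.64 with all cultures).

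Genes whose levels moved most like these were found by the root mean square difference of log2 CPM, each gene centred on its own mean over the 8 libraries, among 12778 genes with a mean of at least 5 CPM and no exonic base shared with the 5 genes. For SNRPN these were SUCLG2 (0.0822), LPGAT1 (0.111) and HBS1L (0.115), against a median of 0.643 over the candidates. For NDN they were CIITA (0.0336), PWWP2A (0.0429) and SDF2 (0.0452), with a median of 0.299. For UBE3A they were TTL (0.0191), CDK5RAP2 (0.0214) and TICAM1 (0.0254), with a median of 0.313. The SNRPN-like genes were low in the 4 shMETTL14 libraries, and the NDN-like and UBE3A-like genes were high in the 4 IP libraries. The 8 libraries come from 4 cultures, so these likenesses describe these samples only.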

How the data were processed

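The authors deposited 1 table of raw counts per gene for the 8 libraries, with exon coordinates read as GRCh38. The submitters' processing notes name Trimmomatic 0.36 and GRCh38, and the aligner, the counting tool and its strand setting are not given in the sources used here. Of counts from 1 to 10, 82.8% were even, as when both mates of a pair are counted, so counts are not independent molecules. The libraries were grouped by their titles. Differences were fitted with edgeR 4.0.16 under R 4.3.3 (filterByExpr, TMM factors, glmQLFit, glmQLFTest, Benjamini-Hochberg adjustment over all genes tested, threshold 0.05). Standard errors come from the F statistic. The input comparison used 4 libraries (22245 genes) and the IP comparisons 1 model of 8 libraries (22953 genes). Replicates are numbered in the titles and are called cultures here, although the titles do not say how they were separated. The p-values measure the spread between these numbered replicates.

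The 5 genes and the 7 lists were chosen with earlier results of these data known. The lists hold the imprinted transcripts, flanking genes and small nucleolar RNAs of 15q11-q13, the Sm ring, the MAGE genes and MAGEL2 partners, the UBE3A partners, and other imprinted genes. Symbols were matched exactly or, for 5, through an older symbol, and 4 were not matched. Named genes were the tested 15q11-q13 list genes, METTL14, the 3 most similar genes and up to 3 genes called per list and direction with a mean of at least 50 counts. For 1 flanking gene and 2 marker genes values are not reported here. For IP over input, calls outside 15q11-q13 are mostly given as counts. SNRPB, USP7, SLC7A5 and RP11-701H24.9 were named after their values were seen. Each fit was repeated with DESeq2 1.42.0, with RLE factors, by library size only, without a filter, with a minimum of 10 counts per library, with a replicate block, with the 8-library model for input and without each culture. Promoter sequences come from RefSeq GRCh38.p14. The tests were checked on simulated counts.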

Additional observations from a re-analysis of the deposited data

How the results depend on the processing

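No log2 difference of SNRPN, SNURF, NDN or UBE3A moved by more than the spread between cultures, other than those given here. Without 1 culture, the input difference of SNURF ran from -1.29 to -1.23 and that of UBE3A from -0.027 to 0.0066, IP over input of UBE3A in sh-NC from 0.55 to 0.59, and its change between the arms from -0.036 to 0.015. With library size only, IP over input in sh-NC was -0.14 for SNRPN, -0.061 for SNURF and 0.43 for UBE3A, and in shMETTL14 -0.026, 0.075 and 0.44. With at least 10 counts in every library it was 0.53 for UBE3A in sh-NC and 0.52 in shMETTL14. With no filter, 1082 genes were called higher and 1072 lower in input, of the listed genes 4 and 8, and for the change of IP over input 1 gene higher and 12 lower. That lower count was 0 with DESeq2, 2 with RLE factors and 3 with at least 10 counts. Without 1 culture, 656 to 2366 genes were called higher and 925 to 2590 lower in input, of the listed genes 3 to 9 and 8 to 19, and for the change of IP over input 0 to 9 higher and 0 to 116 lower, of the listed genes 0 higher and 0 to 1 lower.

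With the replicate number as a replicate block, the input difference was -1.22 for SNRPN, -1.26 for SNURF, 0.013 for NDN and -0.0087 for UBE3A. The deviations of same-numbered libraries correlated by 0.004 and 5.7e-05 (IP with input, in sh-NC and shMETTL14) and by -0.012 (inputs of both arms) over 22953 genes. The numbers were therefore not taken to pair the arms. IP and input of a number were read as 1 culture from their titles alone, as these correlations do not show such a pairing. The ratios given per culture rest on that reading. Leaving out 1 culture leaves its arm with a single one, which is assumed to vary like the other groups. Of the named genes' values under these alternatives, 43 lost their call and 858 kept their side of the threshold, and 0 changed direction. With 2 cultures per arm and counts per whole gene, low transcripts such as MAGEL2 and changes at single m6A sites are beyond these data. So is a loss of m6A shared by all genes, which the scaling of each library removes.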
